A study of Mus musculus with 6 samples.

Results

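Epha3, Slit2, Flrt2, Odz2 and Chl1 encode axon guidance and cell adhesion proteins, and all 5 are among the 223 genes of the authors' deposited table of differences between mouse brainstem gliomas with and without the histone mutation H3.3K27M. They were picked by gene name from genes that the table already lists as different. The difference between the groups therefore chose them, and it is described below without a test. RNA was sequenced from 6 tumours, which the series' design text calls independent. The mice were of the C57BL/6 strain, their p53 gene was floxed, and they carried Nestin tv-a, a transgene that puts a receptor for avian retroviruses on nestin-expressing progenitor cells. All 6 tumours had the growth factor PDGF-B and loss of p53, 3 carried H3.3K27M in addition and 3 did not. The titles of the latter read H3.3WT, though the deposited column of replicate 2 of that group reads WT. Neither label states whether a wild-type H3.3 was introduced. The sources used here give neither the ages of the mice nor the way p53 was removed. The first number in the titles is 12 for every H3.3K27M tumour and 11 for every other tumour, so whatever it marks cannot be told apart from the mutation. The second number is 623 for both H3.3K27M replicates 1 and 2, while each other tumour has a number of its own; what it marks is not stated, and if those replicates share a source, 3 tumours overstate the separate samples of that group.

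Growing axons read short-range and diffusible cues through a small set of protein families. Eph receptors are receptor tyrosine kinases that bind membrane-bound ephrins and mostly give repulsion; Slit proteins are secreted, bind Robo receptors and keep axons away from the midline. Teneurins, of which Odz2 (now named Tenm2) is a member, and FLRT proteins both bind latrophilins, receptors on the facing cell, and FLRT proteins also bind the netrin receptors of the Unc5 family. Chl1 belongs to the L1 family of immunoglobulin-type adhesion molecules, which are anchored inside the cell by ankyrins and act with neuropilins in semaphorin responses. Many of these proteins are also made by glial and progenitor cells. H3.3K27M inhibits the methyltransferase PRC2, which in mammals acts mainly at CpG-rich gene starts.

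All 5 genes had higher levels in the H3.3K27M tumours, and for each of them the lowest H3.3K27M tumour lay above the highest tumour without the mutation. The table's threshold of an adjusted p under 0.05 was passed by 1.36% of the 16365 genes tested, 1.11% as higher and 0.251% as lower. In 99.6% of the listed genes the groups did not overlap and 81.6% of them were higher, so neither fact sets these 5 apart. Their ratio was at least 2-fold for 4 of the 5, against 133 of the 182 listed genes that were higher (59.6% of all 223 listed genes). The median ratio of the group means, H3.3K27M to without, was 2.76 over the 5 genes and 2.98 over the 181 higher genes with a finite ratio. The 5 genes differ from each other more than that median shows. Their ratios ran from 1.89 for Slit2 to 42.3 for Epha3, and their ranks by p-value in the table from 4 for Odz2 to 151 for Chl1. Bulk RNA cannot tell a larger share of cells that express a gene from more RNA per cell.

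**Figure D1:**
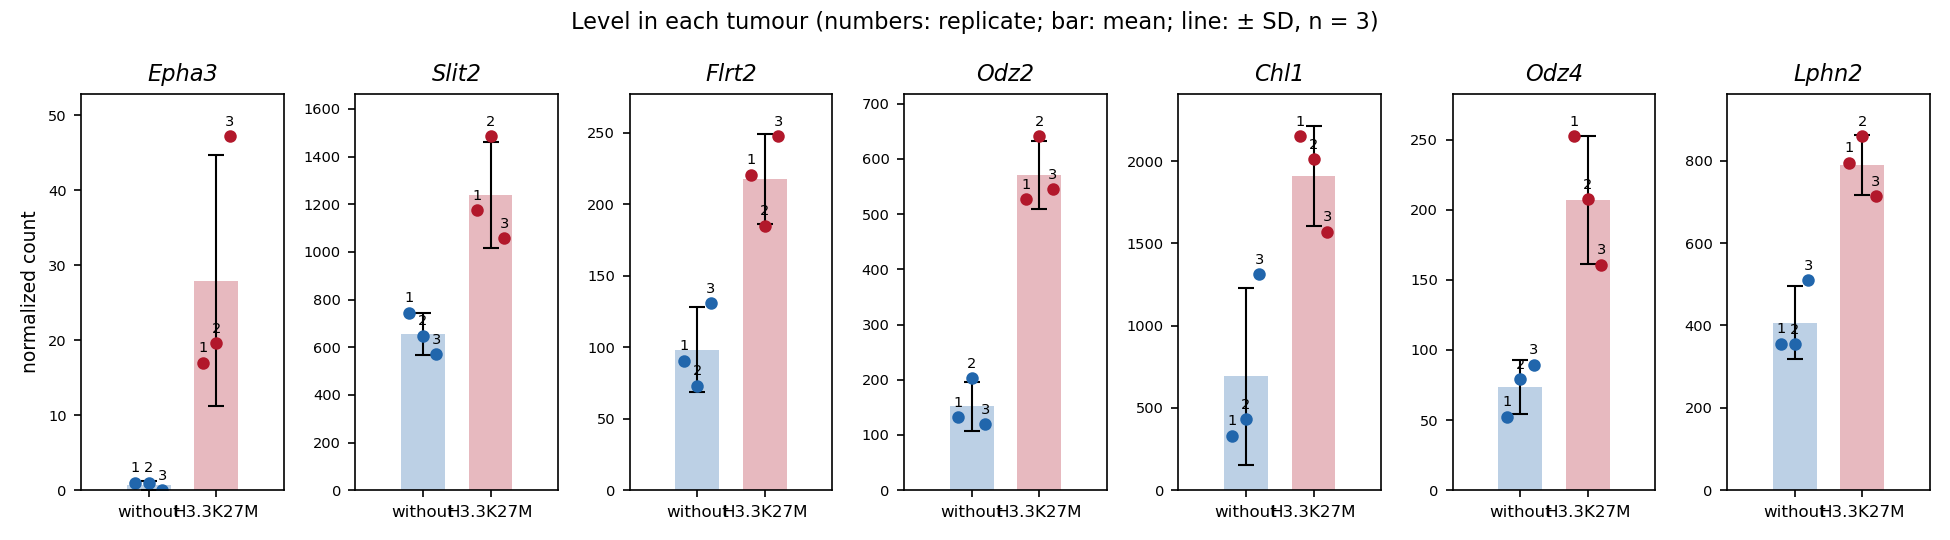
Normalized count (vertical axes, linear from 0, a scale of its own in each panel) of the 5 genes and of Odz4 and Lphn2 in each tumour, with points numbered by replicate, bars at the group mean and lines at ± SD (n = 3 per group; blue without H3.3K27M, red H3.3K27M). No panel has overlapping groups; in the Chl1 panel replicate 3 without the mutation, at 1312, stands near the H3.3K27M tumours, and in the Epha3 panel the tumours without it lie between 0 and 1.01.

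Epha3 (ENSMUSG00000052504, chromosome 16) encodes an Eph receptor for ephrin-A ligands that in human glioblastoma has been described on undifferentiated tumour cells. Its level was 17.0, 19.6 and 47.2 normalized counts in H3.3K27M replicates 1, 2 and 3, against 1.01, 0.976 and 0 in replicates 1, 2 and 3 without the mutation. The gene was thus near the limit of detection in the latter group and low but present in the former, with replicate 3 well above the other two. The means were 27.9 ± 16.8 and 0.661 ± 0.572 (SD, n = 3 each). If 1 step of the normalized values is 1 read, these levels stand for 86 reads against 2, a 41.2-fold higher level with an exact 95% counting interval of 11.1 to 345.3. The interval covers counting error only and pools the reads of each group, so it leaves out the spread between tumours. It describes the contrast that chose the gene and is no test of it. For single tumours, the 18 reads of H3.3K27M replicate 1 give an exact Poisson interval that reaches up to 26.8 normalized counts, and the 49 reads of replicate 3 an interval that reaches down to 34.9. The authors' deposited table gives a 42.3-fold ratio with an adjusted p of 0.0150. That ratio fell to 27.7 when H3.3K27M replicate 3 was left out and to 28.2 when replicate 3 lacking the mutation was. With any other single tumour left out it rose, to between 48.6 and 57.3. From mean log2 levels with a pseudocount of 1 it was 16.5. The ratio of Epha3 ranked 6 among the 182 higher genes, while its mean level ranked 220 of 223.

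Slit2 (ENSMUSG00000031558, chromosome 5), the secreted Robo ligand, was abundant in both groups. Its level was 1174, 1486 and 1057 normalized counts in H3.3K27M replicates 1, 2 and 3, against 745, 648 and 570.4 in replicates 1, 2 and 3 without it. All tumours expressed the gene, and the gap of 313 normalized counts between the nearest tumours of the groups exceeded the SD of either group. The means were 1239 ± 222 and 654 ± 87.3 (SD, n = 3 each). A 1.89-fold ratio with an adjusted p of 0.00423 stands in the authors' deposited table. Slit2 had the smallest ratio of the 5 genes and, pooled over both groups, the smallest within-group SD of log2(normalized count + 1), 0.22. Among the H3.3K27M tumours alone its coefficient of variation (SD over mean), 17.9%, was above those of Odz2, Flrt2 and Chl1. The ratio stayed between 1.70 and 2.03 when any single tumour was left out.

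Flrt2 (ENSMUSG00000047414, chromosome 12) encodes a leucine-rich repeat transmembrane protein whose shed ectodomain repels axons through Unc5 receptors. Its level was 221, 185 and 248 normalized counts in H3.3K27M replicates 1, 2 and 3. Without the mutation it was 90.6, 73.2 and 131. Replicate 3 was the highest tumour of each group. The means were 218 ± 31.5 and 98.2 ± 29.6 (SD, n = 3 each), and the nearest tumours of the groups were 54.0 normalized counts apart. The authors' deposited table gives a 2.22-fold ratio with an adjusted p of 0.0230, and the ratio lay between 1.97 and 2.66 with any single tumour left out.

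Odz2 (ENSMUSG00000049336, chromosome 11), a teneurin that joins neurons to latrophilin-bearing partners, had the widest relative gap between the groups after Epha3. Its level was 527, 641 and 545 normalized counts in H3.3K27M replicates 1, 2 and 3, against 132, 203 and 119.97 without the mutation. The lowest H3.3K27M tumour was 2.60 times the highest of the other group, and the H3.3K27M tumours were close together, with a coefficient of variation of 10.7% against a median of 22.2% over the listed genes. The means were 571 ± 61.4 and 152 ± 44.9 (SD, n = 3 each). The ratio in the authors' deposited table is 3.77-fold and the adjusted p, 6.74e-12, is the fourth smallest of all. Leaving out any single tumour moved the ratio only between 3.41 and 4.54.

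Chl1 (ENSMUSG00000030077, chromosome 6), the close homologue of the adhesion molecule L1, was the most abundant of the 5 per length and varied widely among the tumours without the mutation. Its level was 2152, 2010 and 1570 normalized counts in H3.3K27M replicates 1, 2 and 3. In replicates 1, 2 and 3 without the mutation it was 331, 430.4 and 1312. Replicate 3 of the latter group held 3.96 times the level of replicate 1 and came within 258 normalized counts of the lowest H3.3K27M tumour. The means were 1911 ± 304 and 691 ± 540 (SD, n = 3 each). The coefficient of variation of 78.1% without the mutation compares with 3.90% that counting the implied reads would give, and with a median of 20.8% over the listed genes. The authors' deposited table gives a 2.76-fold ratio with an adjusted p of 0.0239. Without that tumour the ratio was 5.02, and with any other single tumour left out it lay between 2.19 and 3.01.

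**Figure D2:**
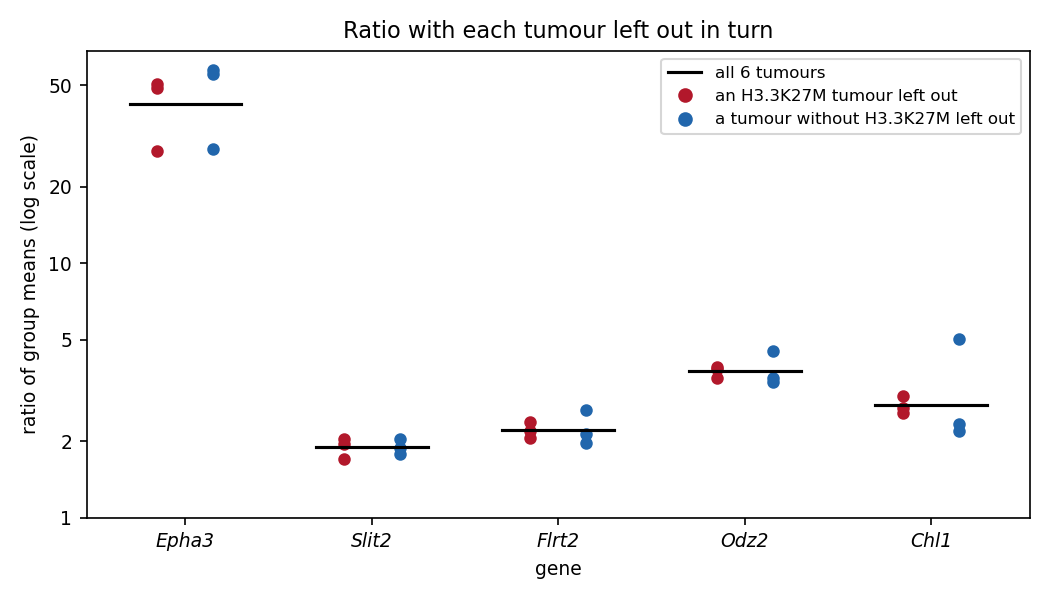
Ratio of the group means, H3.3K27M to without (log scale), for each of the 5 genes with all 6 tumours (black line) and with 1 tumour left out (red points, an H3.3K27M tumour; blue points, a tumour without it). Chl1 rises from 2.76 to 5.02 without replicate 3 of the tumours lacking the mutation. Epha3 falls from 42.3 to 27.7 without H3.3K27M replicate 3 and rises to 57.3 without replicate 1 of the tumours lacking the mutation. The points of Slit2, Flrt2 and Odz2 stay close to their lines.

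Levels of different genes can be set side by side only per length. Per kilobase of annotated exon (GENCODE M21), the H3.3K27M tumours held 155 ± 24.7 normalized counts of Chl1, 49.8 ± 5.35 of Odz2, 48.7 ± 8.72 of Slit2, 28.2 ± 4.08 of Flrt2 and 3.21 ± 1.93 of Epha3 (SD, n = 3 each). Odz2 and Slit2, neighbours in this order, did not differ beyond their spread. Without the mutation the levels per kilobase were 56.2 ± 43.9 for Chl1, 25.7 ± 3.43 for Slit2, 13.2 ± 3.91 for Odz2, 12.7 ± 3.83 for Flrt2 and 0.0760 ± 0.0659 for Epha3. There Slit2 stood above Odz2, which was level with Flrt2 within their spread, and the wide spread of Chl1 reached down to Slit2. Chl1 was the highest and Epha3 the lowest of the 5 by mean in both groups. No exon of another gene in that annotation overlaps the exons of these 5 genes, on either strand. The annotation's build, GRCm38, is not the mm9 build that the submitters' processing notes name, and exon lengths summed over all transcripts approximate those the reads came from.

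**Figure D3:**
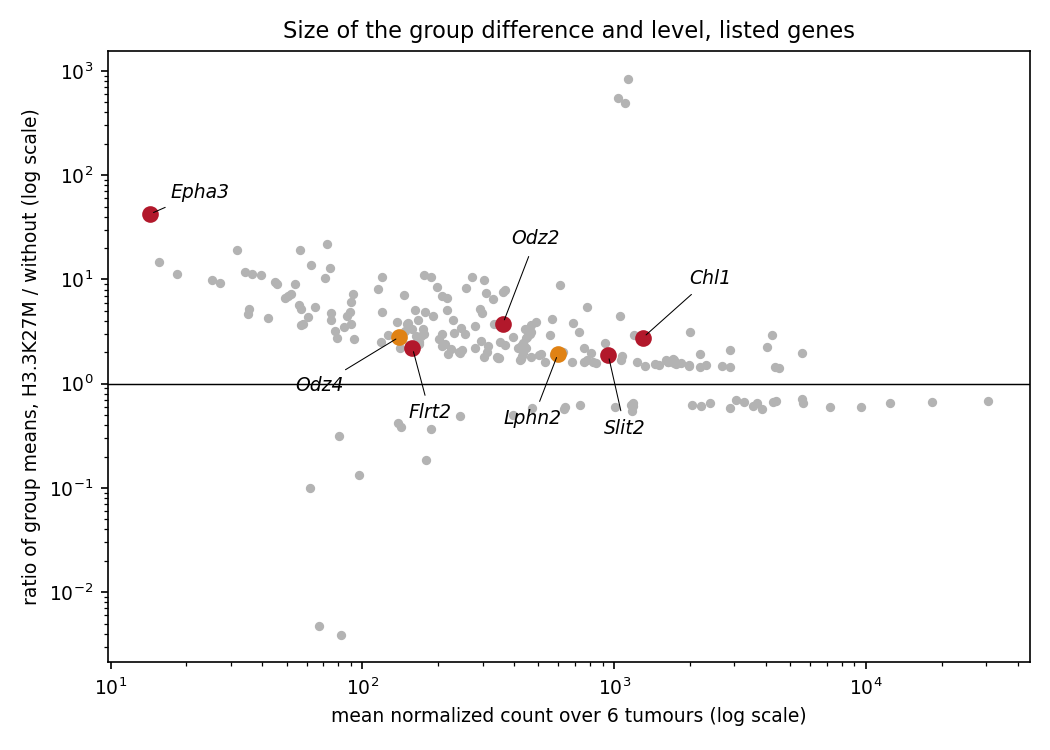
Ratio of the group means, H3.3K27M to without (vertical, log scale), against the mean normalized count over the 6 tumours (horizontal, log scale) for the 219 listed genes with a finite ratio (grey), with the 5 genes in red and Odz4 and Lphn2 in orange. Epha3 lies at the upper left with a mean of 14.3 and a ratio of 42.3, and the other 6 named genes lie between ratios of 1.89 and 3.77.

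The partners and relatives of these proteins were looked up in 9 lists of guidance and adhesion families with 111 genes in all, which were drawn up with results of these data known. The table holds 7 of the 111 (6.31%), 7 higher and 0 lower. Besides the 5 genes these are Odz4 and Lphn2, which make 2 of the other 106 genes (1.89%), near the 1.36% of all genes tested that were listed. Odz4 and Lphn2 belong to the same contact system as Odz2 and Flrt2. Of the list of 7 teneurins and latrophilins the table holds 3, while it holds 1 of 14 Eph receptors, 1 of 7 Slit and Robo genes, 1 of 13 FLRT, Unc5 and netrin genes and 1 of 12 L1 family, contactin and NCAM genes. It holds 0 of 8 ephrins, 0 of 20 semaphorins, 0 of 11 semaphorin receptors and 0 of 19 classical cadherins. A gene outside the table has no value here, so the levels of the ephrin ligands, Robo receptors and Unc5 receptors are not known.

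Odz4 (now Tenm4), a teneurin that in mice is needed for oligodendrocyte differentiation and myelination, was at 253, 208 and 161 normalized counts in H3.3K27M replicates 1, 2 and 3, against 52.3, 79.0 and 89.4 without the mutation. The groups were apart by 71.5 normalized counts, and the authors' deposited table gives a 2.81-fold ratio with an adjusted p of 0.00218. Lphn2 (now Adgrl2), a latrophilin that binds teneurins and FLRT proteins, was at 796, 860.3 and 714 against 356, 354 and 509. Its ratio in the authors' deposited table was 1.94 with an adjusted p of 4.98e-04. As for Chl1 and Flrt2, replicate 3 was the highest of the tumours without the mutation for both genes. Odz2 and Slit2 went the other way, with replicate 3 their lowest tumour in that group.

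A further 9 listed genes with roles at cell contacts were picked after their values were seen, with no list behind them. All 9 were higher, and since 81.6% of the table was higher and the genes were picked from it, that count says nothing about such genes as a class. Ratios in the authors' deposited table were 5.44 for Lrfn5, a synaptic adhesion protein, 5.06 for Amigo1, a leucine-rich repeat adhesion protein, 4.82 for Cdon, a Hedgehog co-receptor, and 3.95 for Cntnap2, an axonal neurexin-type protein. They were 1.80 for Cntnap5b, 1.76 for the Wnt receptor Fzd3, 1.60 for the integrin Itgb8, 1.45 for the receptor phosphatase Ptprd and 1.43 for Ank2. Ank2 encodes ankyrin-B, which links L1-type molecules to the cytoskeleton, and was at 4903, 4848 and 6149 normalized counts in H3.3K27M replicates 1, 2 and 3, against 3842, 3544 and 3745 without the mutation.

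Over the 6 tumours the 5 genes did not share a single profile. Likeness was measured as the root mean square difference between 2 genes' log2(normalized count + 1), each gene centred on its mean over the 6 tumours, so that 0 means the same profile. The difference is not scaled, so it depends on how alike the ratios of the group means are as well as on the order of the tumours. Slit2 and Flrt2 were the closest pair at 0.44, although their tumours were ordered differently within both groups. Flrt2 and Chl1 followed at 0.56 and Slit2 and Odz2 at 0.57. Epha3, with its ratio of 42.3 and levels near 0 without the mutation, was at least 1.18 from each of the other 4. In H3.3K27M tumours the highest replicate was replicate 2 for Slit2 and Odz2, replicate 3 for Epha3 and Flrt2 and replicate 1 for Chl1. Among all listed genes the nearest to Slit2 were Oprl1 at 0.12, Elavl2 at 0.16 and the imprinted gene Peg3 at 0.18. Nearest to Odz2 were the imprinted gene Asb4 at 0.19, Cecr2 at 0.27 and Fam84a at 0.29, and nearest to Flrt2 were Syt7 at 0.15, Fam126b at 0.16 and Bmpr2 at 0.20. Chl1 had no near match, with Lum at 0.43, Erbb4 at 0.44 and Odz4 at 0.47, and Epha3 was nearest to Gpr22 at 0.46, Zfp385b at 0.52 and Syt2 at 0.55. The median distance to all listed genes was 0.71 for Slit2, 0.60 for Flrt2, 0.69 for Odz2, 0.90 for Chl1 and 1.53 for Epha3. All these neighbours were, like the 5 genes, selected for the same difference.

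**Figure D4:**
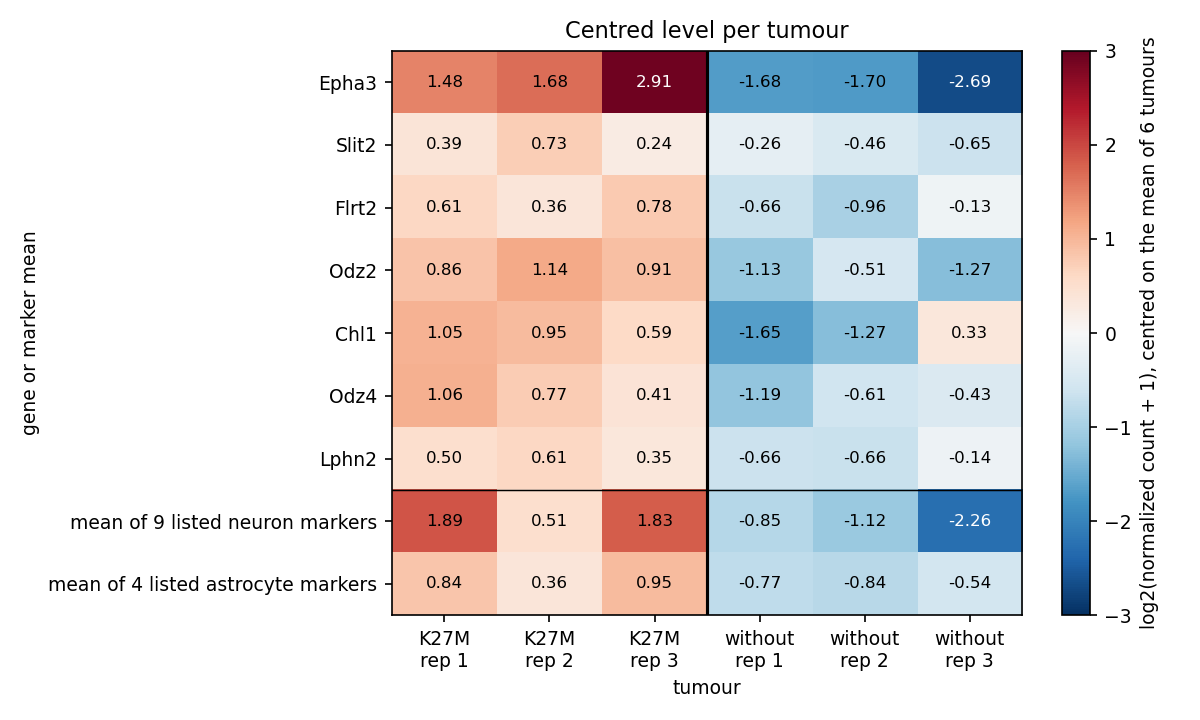
Log2(normalized count + 1) of each gene centred on its mean over the 6 tumours (colour and printed value; columns are tumours, the black vertical line divides the groups), with the mean of the 9 listed neuron markers and of the 4 listed astrocyte markers below the line. The neuron markers are lowest among H3.3K27M tumours in replicate 2, at 0.51, where Odz2, at 1.14, and Slit2, at 0.73, have their highest values and Flrt2, at 0.36, its lowest value of that group.

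Some markers of other cell types were listed, out of lists drawn up with results of these data known. Of all genes tested 1.11% were listed as higher and 0.251% as lower. A marker outside the table has no value here. Of 30 neuron markers the table holds 9, all higher, and their summed level was 3564 to 8504 normalized counts in H3.3K27M tumours and 820.2 to 1701 in the others; none of the 9 was at 0 in any tumour. The 3 with the largest ratios were Scn4b, Gad2 and Nefh. Of 15 astrocyte markers 4 were listed, all higher, with sums of 2169 to 3797 against 960.2 to 1141, and of 11 mural and fibroblast markers 3 were listed (Lum, Dcn and Lox), all higher, with sums of 1116 to 1764 against 279.8 to 556. Of 15 oligodendrocyte precursor markers 3 were listed (Bcas1, Dll3 and Kcnip3), all lower, with sums of 15558 to 20170 against 24700.1 to 29655. For myelin 1 of 14 markers was listed and for choroid plexus and ependyma 1 of 10, Ermn and Otx2, both higher, and Otx2 was at 0 in replicate 3 without the mutation. No microglial or endothelial marker of the 12 and 10 looked for was listed, and neither were the glioma lineage genes Olig2 and Pdgfra, so the labelled tumour type cannot be checked at those genes. Within the groups the 5 genes followed the markers in some cases and not in others. H3.3K27M replicate 2 had the lowest neuron sum of its group, 3564 against 8504 and 8486 in replicates 1 and 3, and the lowest astrocyte sum; Flrt2 was also lowest there, and Slit2 and Odz2 were highest. H3.3K27M replicate 3 had the highest astrocyte and the highest mural and fibroblast sum of its group and the highest Epha3 and Flrt2, but the lowest Slit2 and Chl1. Replicate 3 without the mutation had the lowest neuron sum of all tumours, 820.2, and the lowest Slit2 and Odz2 of its group. The same tumour had the highest mural and fibroblast sum of its group, 556, and the highest Chl1 and Flrt2. Epha3 was at 0 there and at 1.01 and 0.976 normalized counts in replicates 1 and 2 of that group, too low to order them. The part of these cell types in the group difference of the 5 genes was not tested.

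The sequence before the gene start was compared because the 5 genes share a direction. Shown are the windows of Slit2 and Epha3, the member with the most CG dinucleotides and the member with the largest ratio, as the 250 bases before the RefSeq gene start (GRCm38.p6), each 5′ to 3′ on its gene's strand with CG dinucleotides in capitals. Slit2 lies on the plus strand at chr5:47982905-47983154 and Epha3 on the minus strand at chr16:63864176-63864425.
Slit2: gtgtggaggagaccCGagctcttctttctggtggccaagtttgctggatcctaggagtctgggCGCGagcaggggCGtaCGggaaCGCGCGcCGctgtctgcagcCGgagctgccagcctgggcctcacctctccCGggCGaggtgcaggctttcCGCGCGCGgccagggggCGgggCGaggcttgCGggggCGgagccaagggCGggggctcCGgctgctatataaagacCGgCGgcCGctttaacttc
Epha3: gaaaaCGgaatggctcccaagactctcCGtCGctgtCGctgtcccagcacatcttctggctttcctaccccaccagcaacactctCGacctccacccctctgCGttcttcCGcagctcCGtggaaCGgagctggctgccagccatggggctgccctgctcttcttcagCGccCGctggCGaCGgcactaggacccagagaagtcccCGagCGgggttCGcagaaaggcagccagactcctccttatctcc

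These windows held 25 CG dinucleotides for Slit2 and 16 for Epha3, against 12 for Flrt2 (chr12:95691976-95692225, plus strand) and 8 for Chl1 (chr6:103510626-103510875, plus strand). Over 32851 windows of the same length before RefSeq gene starts the median was 6, with a middle range of 2 to 16. At least as many CG dinucleotides as in Slit2 were found in 10.7% of windows, as in Epha3 in 25.4%, as in Flrt2 in 33.5% and as in Chl1 in 43.0%. The Odz2 window (chr11:36944242-36944491, minus strand) held 2, and 81.2% of windows held at least as many. Slit2 had the most CG dinucleotides of the 5 and the smallest ratio, while Epha3 had the next most and the largest ratio. Odz2 had the fewest and the next largest ratio. A link between CG content and ratio was not tested. The windows depend on the start chosen. The RefSeq start of Odz2 lies 292 kb inside the outermost start in GENCODE M21 and 75 bases from the nearest annotated transcript start, and that of Chl1 lies 0.29 kb inside the outermost start and 86 bases from the nearest, so these windows lie within the annotated genes. The starts of Epha3, Slit2 and Flrt2 lie within 17 bases of the outermost. A TATA motif (TATAAA, either strand) was present in the Slit2 window and in 12.4% of all windows, and a GC box (GGGCGG, either strand) in the Slit2 window and in 32.7% of all. Neither motif was found in the other 4 windows, and a CCAAT motif (CCAAT, either strand), present in 33.8% of all windows, was in none of the 5. Histone marks and start sites were not measured in these tumours, and which start each tumour used is not known.

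**Figure D5:**
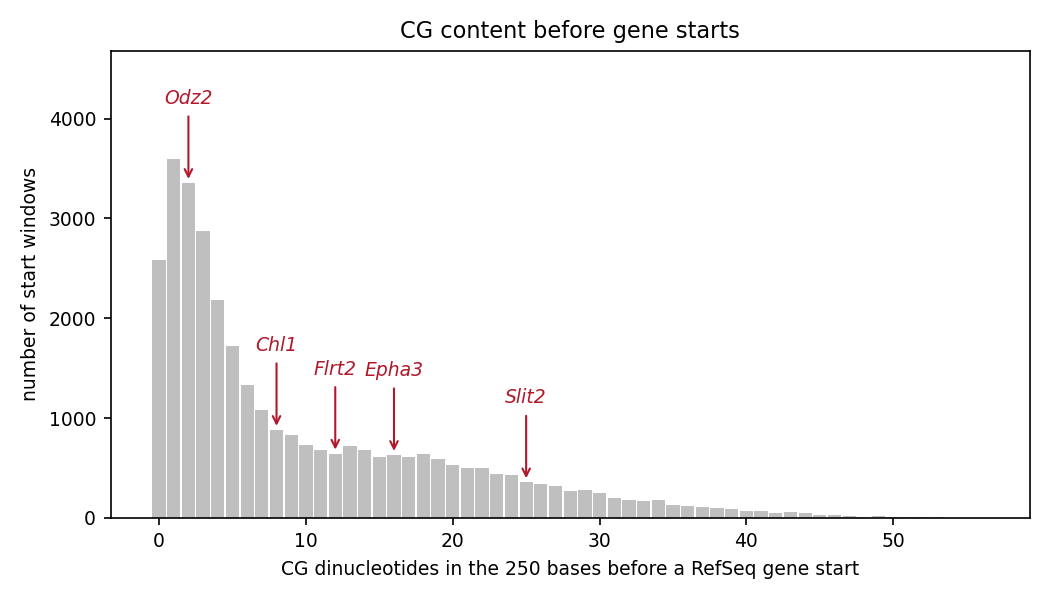
Number of RefSeq start windows (vertical) with each count of CG dinucleotides in the 250 bases before the gene start (horizontal), over 32851 windows, with arrows at the counts of Odz2 (2), Chl1 (8), Flrt2 (12), Epha3 (16) and Slit2 (25). Odz2 lies below the median of 6 and the others above it. The Odz2 window lies 292 kb inside the outermost annotated start of its gene, so its count need not describe the promoter in use.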

How the data were processed

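The authors deposited 1 table of genes differing between H3.3K27M and other tumours, per its title line. Each tumour has a signal column of counts normalized by a size factor, and the table adds the authors' group means, their ratio (fold change) with its log2 value, and p-values before and after adjustment. DESeq is named, with no version, and builds mm9 and NCBIM37, per the submitters' processing notes; the sources used here name no aligner, counter or strand setting. The deposited adjusted p-values equal the Benjamini-Hochberg formula over 16365 tests, so the table holds every gene under 0.05. In each column 100% of values were whole multiples of 1 step within 0.01, with implied size factors of 0.9169 to 1.0607 and 215758 to 277881 reads over the listed genes. Total depth is unknown, and no count test was run because the low values do not settle that a step is a read.

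Columns were matched by title, the column that reads WT in place of H3.3WT by the numbers in its title, and replicates were numbered in sample order. Means, SDs, ratios, profile distances and CG counts were computed in Python 3.11.15 with pandas 2.3.3, numpy 2.4.6 and scipy 1.17.1. Simulated data checked only the recovery of the number of tests and of the size factors, and the finding of a planted nearest profile. No test of the group difference was run, since the same contrast chose the genes; 3 tumours against 3 could not give an exact permutation p below 0.1 either. Members and lists were chosen with earlier results of these data known. Named are the 5 genes, listed members of the 9 lists, the 3 listed genes nearest to each of the 5, and up to 3 markers a list; a further 9 genes, and markers named beyond these, were chosen after their values were seen. RefSeq windows (GRCm38.p6) were found for 5 of the 5 genes.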

Additional observations from a re-analysis of the deposited data

How the results depend on the processing

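Of the 54 alternative values, 50 moved by no more than the within-group SD on the log2 scale or, for counts, by no more than 1.5 times. No ratio reversed, but with groups that do not overlap this was fixed in advance for single tumours left out, medians and pseudocounts. Only leaving out the size factors could have reversed a ratio, and counts have no direction. That SD is each gene's own, so the limit is wide for a variable gene. For Chl1, with an SD of 0.764, the log2 ratio was 1.47 from group means and 2.22 from group medians, which counts as within it. The log2 ratio of Epha3, 5.40 from the group means, was 4.05 from mean log2 levels with a pseudocount of 1, 1.75 with a pseudocount of 10 and 4.33 from group medians; with 0 or 1 read per tumour in 1 group, its size depends on such choices by construction. With any single tumour left out, the log2 ratio ranged from 4.79 to 5.84 for Epha3, 0.77 to 1.02 for Slit2, 0.98 to 1.41 for Flrt2, 1.77 to 2.18 for Odz2 and 1.13 to 2.33 for Chl1, the last without replicate 3 of the tumours lacking the mutation. Of the 7 listed genes of the wider lists, 6 had a mean of at least 50 normalized counts, 5 a ratio of at least 2, and 7 kept their groups apart with each tumour left out, which follows from groups that do not overlap. With a pseudocount of 10, 10 of the 15 nearest genes were the same. No paired analysis was possible because the labels give no replicate numbers shared between the groups. Depth limits Epha3 most, as a count of 0 allows up to 3 reads.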
